A study of Ovis aries with 9 samples.

Results

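Hepatocytes from the livers of female sheep at days 140 to 150 of gestation, close to term, were compared with hepatocytes from days 100 to 120. The members were all cells that the deposited count table assigns to these stages, 353 cells at days 100 to 120 and 492 cells at days 140 to 150, which are 845 of the 3404 cells in the series. The series holds 9 libraries with 1 stage each, of which 1 is from virgin sheep, 6 are from gestation and 2 are from lactation at days 7 and 15. Livers were taken at slaughter and digested with collagenase after cold transport, and hepatocytes were picked singly by hand into plate wells, where Smart-seq3xpress made complementary DNA and a library from each cell. The animals were female and untreated as far as the labels say, and the sources used here do not give the number of ewes behind each stage, their breed, litter size or feeding. With 1 library on each side, a difference between the stages cannot be told apart from a difference between animals, plates or days of collection, and cells of 1 library are not replicates, so no p-value is given.

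The liver of a pregnant ewe makes nearly all of the glucose that mother and fetus use, because fermentation in the rumen leaves little sugar to absorb. Its substrates are propionate, lactate, glycerol and amino acids, and pyruvate carboxylase and phosphoenolpyruvate carboxykinase feed them into gluconeogenesis. In late pregnancy ewes mobilise body fat, and the liver takes up the released fatty acids and glycerol, burns or esterifies the fatty acids, and exports lipid in lipoproteins. Many genes of fatty acid handling are targets of PPARA, a nuclear receptor that fatty acids activate, whereas SREBP2 drives the genes of cholesterol synthesis.

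Levels are in CPM, the reads of a gene summed over the cells of a library and divided by the library's reads in units of 1000000, adjusted by the TMM method. A gene was counted as tested at a mean of at least 5 CPM over both libraries, and as higher or lower at a 2-fold difference. The libraries held 173491742 reads at days 100 to 120 and 204863071 at term, with a median of 469964 and 387843 reads per cell. After each cell was thinned to 155164 reads, the median cell showed 4597 genes at days 100 to 120, the fewest of the 9 libraries, and 5801 at term. The summed level of 14 hepatocyte markers was 208586 CPM at days 100 to 120 and 186902 CPM at term, so the label of the cells held on both sides. The summed levels of the other marker lists were at most 36.3 CPM at days 100 to 120 and 47.0 CPM at term. Lymphocyte markers summed to 36.3 and 6.61 CPM, macrophage markers to 22.2 and 12.2 CPM with CD68 at 0 in both, and red cell markers to 14.5 and 2.97 CPM, with 87.8% of the earlier sum in 1 cell. No cell had the same values as another.

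Neither library was uniform along its cell numbers. Levels of several genes changed sharply along the cell numbers in both libraries, and no label says what the runs of cells between such changes share. Each library was therefore also cut into blocks of 50 consecutive cell numbers, 7 at days 100 to 120 and 10 at term, a choice made after the data were seen. The blocks are a description of spread within a library and not replicates. The last 2 term blocks, cells 401 to 492, stood apart from the other 8. ALB, the gene of serum albumin, was at 42423 and 27184 CPM in them against 96677 to 123010.0 CPM in the other term blocks. PCK1, the cytosolic phosphoenolpyruvate carboxykinase, was at 651 and 339.6 CPM in them against 2669 to 3788 CPM. Genes described here whose difference lay mainly in these 92 cells are given with and without them. Other 2-fold calls can also depend on these cells, and not all such calls are marked. The heatmap of block levels shows both the differences that ran through every block and those that belonged to a few.

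**Figure D1:**
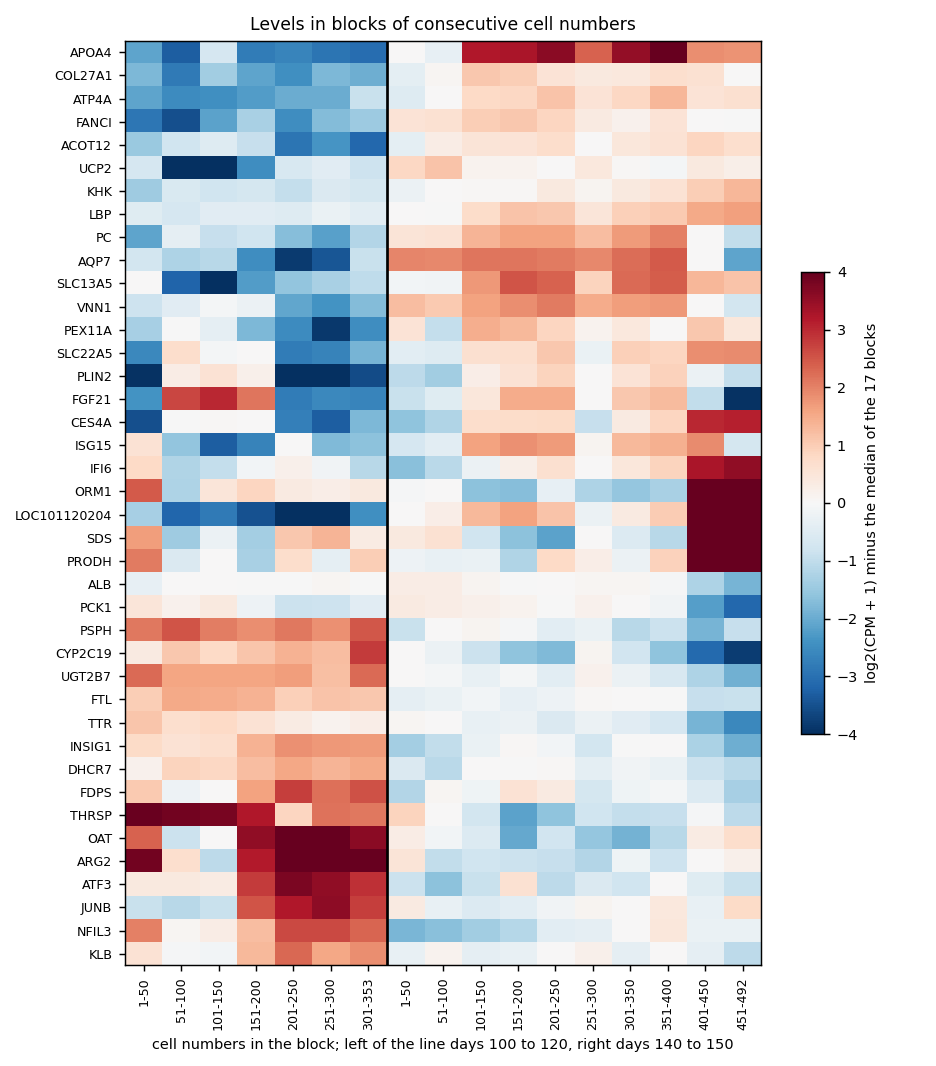
Each row is a gene and each column a block of consecutive cell numbers, days 100 to 120 left of the line and days 140 to 150 right of it; colour is log2(CPM + 1) minus the gene's median over the 17 blocks. APOA4 at the top is low in all 7 earlier blocks, ORM1 is high in the last 2 term blocks, and FGF21 is high in earlier blocks 2 to 4.

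Of 8159 genes tested, 270 (3.31%) were at least 2-fold higher at term and 337 (4.13%) at least 2-fold lower. Together they were 7.44% of genes, and the same count for the 4 earlier steps between neighbouring gestation libraries ran from 4.44% to 7.02%. The median log2 fold change was -0.06, and 4497 genes were lower and 3662 higher. In 35 genes (0.429%) a 2-fold higher level came with all 10 term blocks above all 7 earlier blocks, and in 72 genes (0.882%) a 2-fold lower level came with all term blocks below. Without term cells 401 to 492 these numbers were 98 and 108, and with blocks of 25 cell numbers 6 and 39. Without a fold limit, blocks lay apart in 49 genes (0.601%) upward and 168 (2.06%) downward. Over all genes tested, term was the highest of the 6 gestation libraries in 16.4% and the lowest in 18%, and days 100 to 120 was the highest in 24.6%. The scatter of both libraries shows the genes with separate blocks on both sides of the diagonal.

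**Figure D2:**
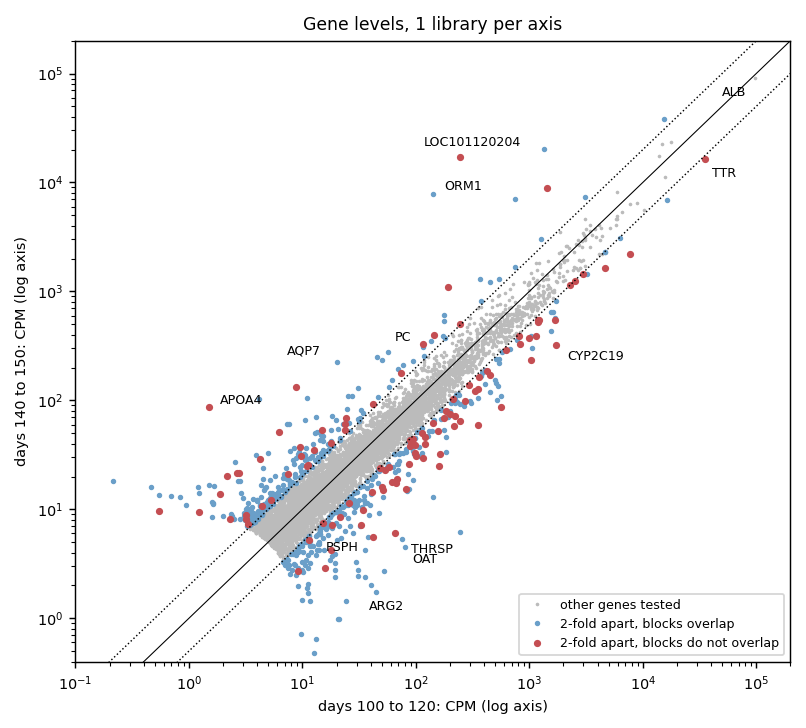
Each point is a gene, with its level at days 100 to 120 on the x axis and at days 140 to 150 on the y axis, both in CPM on log axes; dotted lines mark a 2-fold difference. Red points are the 35 higher and 72 lower genes whose blocks do not overlap, among them APOA4 above and TTR and PSPH below the lines.

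APOA4, an apolipoprotein of triglyceride-rich particles, showed the largest fold among tested genes with an established symbol. It stood at 1.49 CPM at days 100 to 120 (blocks 0.247 to 6.65, median 0.77) and 86.1 CPM at term (blocks 8.71 to 219, median 86.3). Every term block lay above every earlier block, and the term level was 57.6-fold higher, with a 95% interval of the log2 ratio of 5.66 to 6.04 that covers counting error only. After thinning, 4.71% of earlier cells and 59.3% of term cells had a read of it. The 5 earlier gestation libraries all lay far below term, with 1.98 CPM at days 90 to 100. Within the term library the first 100 cells were the low ones, at 11.2 and 8.71 CPM.

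Other apolipoprotein genes differed less. APOA5, which helps lipoprotein lipase to clear triglyceride, stood at 537 CPM at days 100 to 120 (blocks 367 to 682, median 545) and 1292 CPM at term (blocks 419 to 1817, median 1534). Its term blocks were above the earlier maximum in 8 of 10, the exceptions being the last 2. APOA1, the main protein of high-density lipoprotein, stood at 1849 CPM at days 100 to 120 (blocks 1612 to 2181, median 1893) and 3522 CPM at term (blocks 2760.2 to 5037, median 3592), below the 2-fold limit but with no overlap between the blocks. APOC3, an inhibitor of lipoprotein lipase, was at 17748 and 23584 CPM, and APOB, the scaffold of very-low-density lipoprotein, was nearly level at 1601 and 1593 CPM. Of 14 tested genes of apolipoproteins and lipoprotein secretion, 10 were higher and 4 lower, 2 of them 2-fold higher (3.31% over all genes tested), with a median log2 fold change of 0.23.

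PC, AQP7 and SLC13A5, which make or move substrates and intermediates of glucose and lipid synthesis, were each more than 2-fold higher at term. PC, pyruvate carboxylase, which makes oxaloacetate from pyruvate, stood at 56.7 CPM at days 100 to 120 (blocks 27.4 to 98.5, median 55) and 279 CPM at term (blocks 63.7 to 510.0, median 312). Its term level was 4.92-fold higher (95% interval of the log2 ratio 2.27 to 2.33), and 9 of 10 term blocks lay above the highest earlier block. The exception was the last term block, at 63.7 CPM. AQP7, a channel that lets glycerol through membranes, stood at 20.2 CPM at days 100 to 120 (blocks 3.53 to 38.1, median 26.5) and 226 CPM at term (blocks 13.9 to 355, median 262). Here too 9 of 10 term blocks lay above all earlier ones, at 243 to 355 CPM in the first 8, and 63.8 and 13.9 CPM in the last 2. SLC13A5, which imports citrate, was 9.59-fold higher, at 11 and 105 CPM, with 8 of 10 term blocks above the earlier maximum.

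The other genes of glucose output described here differed by less than PC did. FBP1, fructose-1,6-bisphosphatase, was at 1229 and 1832 CPM, G6PC1, the glucose-6-phosphatase that releases glucose, at 513 and 626 CPM, and PCK1 at 2752 and 2667 CPM. PCK2, the mitochondrial phosphoenolpyruvate carboxykinase, stood at 118 CPM at days 100 to 120 (blocks 61.9 to 168, median 119) and 223 CPM at term (blocks 169.9 to 315, median 206), a difference below the 2-fold limit with every term block above every earlier one. MPC1, a subunit of the carrier that brings pyruvate into mitochondria, did the same, at 86.7 to 167 CPM in the earlier and 217 to 300.1 CPM in the term blocks. LDHB, a lactate dehydrogenase subunit, was 1.9-fold higher with 9 of 10 term blocks above the earlier maximum. GK, glycerol kinase, was 2.45-fold higher over the whole library, but its level without term cells 401 to 492 was 129.6 CPM against 94.5 CPM at days 100 to 120. The aspartate aminotransferase gene GOT1 was 2.17-fold higher with those cells and 127 against 119 CPM without them. Of 16 tested genes of glucose output, 9 were higher and 7 lower. In 3 the level was 2-fold higher (3.31% over all genes tested) and in 0 2-fold lower (4.13% over all). The median log2 fold change was 0.39, or 0.35 without cells 401 to 492. In the propionate list, which shares PC and both carboxykinases with that list, 3 of 13 genes were higher and 10 lower, with MCEE, methylmalonyl-CoA epimerase, at 257 and 404 CPM with separate blocks and MMUT, methylmalonyl-CoA mutase, at 561 and 345 CPM with separate blocks in the other direction.

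Fructose and glycogen genes gave single differences. KHK, ketohexokinase, the first enzyme of fructose use, stood at 74.5 CPM at days 100 to 120 (blocks 47.8 to 86.5, median 79.8) and 178 CPM at term (blocks 112 to 326, median 156), and its blocks did not overlap. PPP1R3C, which targets a phosphatase to glycogen, was 2.67-fold lower, at 138 and 51.8 CPM, with overlapping blocks. Over the 22 tested genes of glycolysis and glycogen, 9 were higher and 13 lower.

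**Figure D3:**
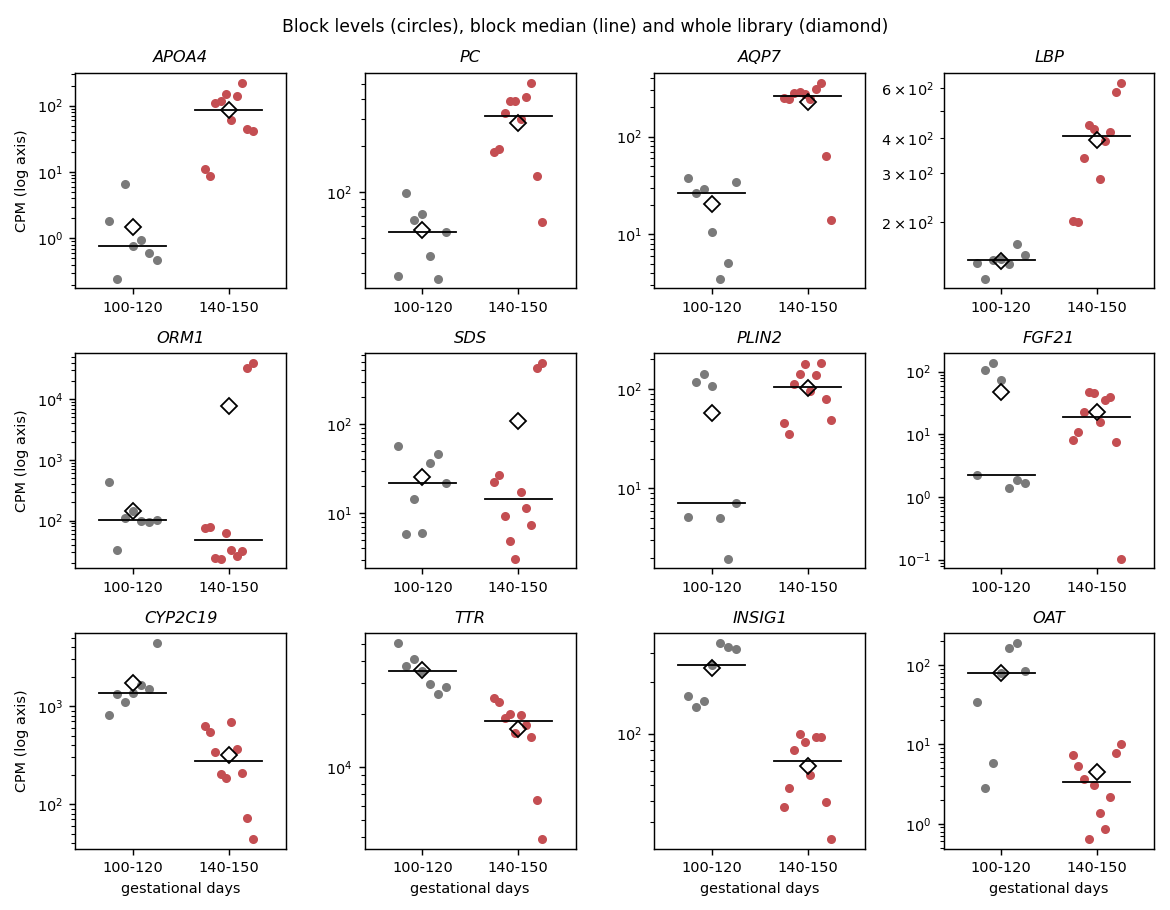
Each panel is a gene; circles are the levels in blocks of consecutive cell numbers in CPM on a log axis, 7 at days 100 to 120 and 10 at days 140 to 150, lines are block medians and diamonds the whole library. APOA4, LBP, CYP2C19, TTR and INSIG1 have no overlap between the stages, whereas the diamond of ORM1 at term lies far above 8 of its 10 circles.

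Genes of fatty acid import, activation and oxidation were mixed, and several PPARA targets were among the higher ones. VNN1, vanin, a pantetheinase that follows PPARA activity, stood at 49.8 CPM at days 100 to 120 (blocks 16.4 to 85, median 51.1) and 235 CPM at term (blocks 53.7 to 382, median 268), with 9 of 10 term blocks above the earlier maximum. PEX11A, which promotes the division of peroxisomes, was 4.01-fold higher, at 27.1 CPM at days 100 to 120 (blocks 3.72 to 67.1, median 18.5) and 109 CPM at term (blocks 34 to 187, median 95.5). SLC22A5, the carnitine importer, was 3.06-fold higher and its level increased over the last 4 gestation libraries in order, but earlier blocks 2 to 4 held up to 39.6 CPM and only 5 term blocks exceeded them. ACAA2, the last enzyme of the mitochondrial oxidation cycle, was at 754 and 1667 CPM, and HADHA, a subunit of the trifunctional oxidation enzyme, at 95.6 and 154 CPM with separate blocks. CPT1A, the gate of fatty acid entry into mitochondria, was at 69 and 133 CPM, under 2-fold. ACOT12, a cytosolic acetyl-CoA hydrolase, stood at 9.58 CPM at days 100 to 120 (blocks 2.21 to 18.8, median 9) and 37.7 CPM at term (blocks 20.4 to 49.8, median 39.4), and its blocks did not overlap. UCP2, an uncoupling protein of the inner mitochondrial membrane, stood at 15 CPM at days 100 to 120 (blocks 0 to 29, median 22.3) and 53.6 CPM at term (blocks 38.3 to 89.6, median 46.1), again without overlap.

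Other genes of the same group were level or lower. FABP1, the main fatty acid binding protein of hepatocytes, was 2.03-fold lower, at 4664 and 2294 CPM. DECR1, which reduces intermediates from unsaturated fatty acids, was at 731 and 397 CPM with all term blocks below. Of 20 tested PPARA targets, 12 were higher and 8 lower, 3 of them 2-fold higher (3.31% over all genes tested) and 2 2-fold lower (4.13% over all). Their median log2 fold change was 0.15 from whole libraries and 0.66 from block medians. Of 23 genes of fatty acid oxidation 15 were higher, with a median of 0.14.

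Some lipid and fasting genes were uneven along the earlier library. PLIN2, a coat protein of lipid droplets, was at 117, 143 and 108 CPM in earlier blocks 2 to 4 and at 1.97 to 7.09 CPM in the other 4. Its 10 term blocks ran from 35.1 to 182 CPM with a median of 104, so that every term block lay above the 4 low earlier blocks, and the term range spanned the high ones. FGF21, a fasting hormone of the liver, was at 107, 137 and 74 CPM in the same earlier blocks and at 1.41 to 2.24 CPM in the other 4. At term it ran from 0.104 to 46.6 CPM. Its whole-library level was 2.1-fold lower at term, at 47.5 and 22.6 CPM, while the median of its term blocks, 19.1 CPM, was above the median of the earlier blocks, 2.24 CPM. PDK4, which switches off pyruvate oxidation, ran from 158 to 749 CPM over the earlier and 74.8 to 670.2 CPM over the term blocks. For FGF21 the direction thus differed between whole libraries and block medians.

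ORM1, the acute phase protein orosomucoid, had the next largest fold after APOA4, and nearly all of its reads at term lay in cells 401 to 492. It was at 142 CPM at days 100 to 120 and 7825 CPM at term, 55.1-fold higher. The last 2 term blocks were at 32046 and 39161 CPM, and the other 8 ran from 23.6 to 78.3 CPM, against 33 to 429.9 CPM in the earlier blocks. Without the last 2 blocks ORM1 was lower at term, at 47.2 CPM. LOC101120204, a protein-coding gene without an established symbol next to HPS5 and LOC105604171, was chosen after its values were seen and was at 244 and 17104 CPM. In the last 2 term blocks it reached 62145 and 71058 CPM, but the other 8 term blocks, at 1524 to 5493 CPM, also lay above all earlier blocks, at 51 to 721 CPM. Its neighbour LOC105601867 was at 676 CPM without the last 2 blocks and 749 CPM at days 100 to 120, and 7101 CPM with them. Near-identical copies of these genes may share reads.

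The same cells were high in enzymes of amino acid breakdown. SDS, serine dehydratase, was at 423 and 484 CPM in the last 2 term blocks, 3.07 to 26.6 CPM in the other 8, and 5.81 to 56.6 CPM in the earlier blocks. PRODH, proline dehydrogenase, was 6.64-fold higher at term with these cells and at 3.38 against 4.99 CPM without them. GNMT, glycine N-methyltransferase, was 3-fold higher with them and at 14.7 against 17.8 CPM without them. These 3 were the 2-fold higher members among 43 tested genes of amino acid breakdown (3.31% over all genes tested). Of the 43, 17 were higher and 26 lower, 2 of them 2-fold lower (4.13% over all). IGF1, insulin-like growth factor 1, was at 99.8 and 34.4 CPM in these blocks against 309.9 to 454 CPM in the other term blocks. The cells were thus high in acute phase and amino acid genes and low in ALB, PCK1, AQP7 and IGF1, and what else sets them apart is not labelled.

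LBP, the lipopolysaccharide binding protein, was the 1 acute phase gene of 16 tested whose blocks lay apart (0.601% upward and 2.06% downward over all genes tested). The list held 25 names, of which 18 had a row under that symbol, so its counts leave out some acute phase genes. It stood at 146 CPM at days 100 to 120 (blocks 126 to 168, median 146) and 394 CPM at term (blocks 201 to 628, median 405). All 10 term blocks were above all 7 earlier ones, the first 8 at 201 to 443 CPM. FGB, a fibrinogen chain, was at 14683 and 22740.5 CPM, or 18508 CPM at term without cells 401 to 492, and CRP, C-reactive protein, at 4317 and 3838 CPM. Of 16 acute phase genes tested, 11 were higher and 5 lower, with a median log2 fold change of 0.28, and without those cells 7 were higher and 9 lower, with a median of -0.02.

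Several interferon-stimulated genes were 2-fold higher at term. USP18, a brake on interferon signalling, stood at 7.17 CPM at days 100 to 120 (blocks 3.22 to 12.6, median 5.11) and 23.7 CPM at term (blocks 11.3 to 35, median 25), with 9 of 10 term blocks above the earlier maximum. ISG15, a ubiquitin-like protein induced by interferon, was 4.27-fold higher, at 30.7 and 131 CPM, and MX1, an antiviral GTPase, 2.38-fold higher, at 16.8 and 40.1 CPM. In the earlier library 23% and in the term library 13% of ISG15 reads came from 1 cell. IFI6, another interferon-induced gene, was 3.55-fold higher with term cells 401 to 492 and at 432 against 365 CPM without them. Of 17 interferon response genes tested, 12 were higher and 5 lower, 7 of them 2-fold higher (3.31% over all genes tested) and 1, IRF1, 2-fold lower, and the median log2 fold change was 0.11. Without cells 401 to 492, 14 were higher and 3 lower, 6 of them 2-fold higher and 1 2-fold lower, with a median of 0.29. The transducer STAT2 differed by under 2-fold, at 28.6 and 34 CPM.

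Cholesterol synthesis genes were lower at term along most of the pathway. Of 21 tested, 20 were lower and 1 higher, where 55.1% of all genes tested were lower. In 8 of the 21 the level was 2-fold lower (4.13% over all genes tested), and 4 had all term blocks below all earlier blocks (2.06% over all). Without term cells 401 to 492, 10 of the 21 were 2-fold lower. The median log2 fold change was -0.90, with -0.88 from block medians and -0.71 without term cells 401 to 492. INSIG1, which holds the SREBP complex in the endoplasmic reticulum and is itself a target of it, stood at 243 CPM at days 100 to 120 (blocks 143 to 340.3, median 253) and 64.8 CPM at term (blocks 24 to 99.8, median 68.5). Every term block lay below every earlier block. DHCR7, which makes cholesterol from 7-dehydrocholesterol, was at 98.5 and 32.8 CPM, and TM7SF2, a sterol reductase, at 101 and 30.7 CPM, both with separate blocks. SC5D, a sterol desaturase, was the fourth, at 623 and 334 CPM. FDPS, farnesyl diphosphate synthase, was 4.38-fold lower, HMGCS1, the cytosolic HMG-CoA synthase, 2.97-fold and SQLE, squalene epoxidase, 2.84-fold, with some overlap of blocks in each. Term was the lowest of the 6 gestation libraries in 17 of the 21 genes, against 18% over all genes tested.

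Fatty acid synthesis showed 1 very low gene. THRSP, a regulator that promotes lipogenesis, stood at 74.9 CPM at days 100 to 120 (blocks 14.2 to 129, median 76.6) and 5.38 CPM at term (blocks 0.899 to 14.8, median 3.64), 13.9-fold lower at term. Of the 10 term blocks 9 were below the lowest earlier block, and the level had decreased over gestation from days 50 to 70 onward. FASN, fatty acid synthase, was low on both sides, at 8.47 and 4.28 CPM, and 1.69 CPM without term cells 401 to 492. ACACB, the mitochondrial acetyl-CoA carboxylase, was 2.26-fold higher, at 6.05 and 13.7 CPM, with overlapping blocks, while ACACA, the cytosolic form, was at 6.52 and 5.2 CPM. Over 15 tested genes 6 were higher and 9 lower, with a median of -0.35. Without term cells 401 to 492, 0 of the 15, and so not ACACB, were 2-fold higher, and 2 were 2-fold lower.

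**Figure D4:**
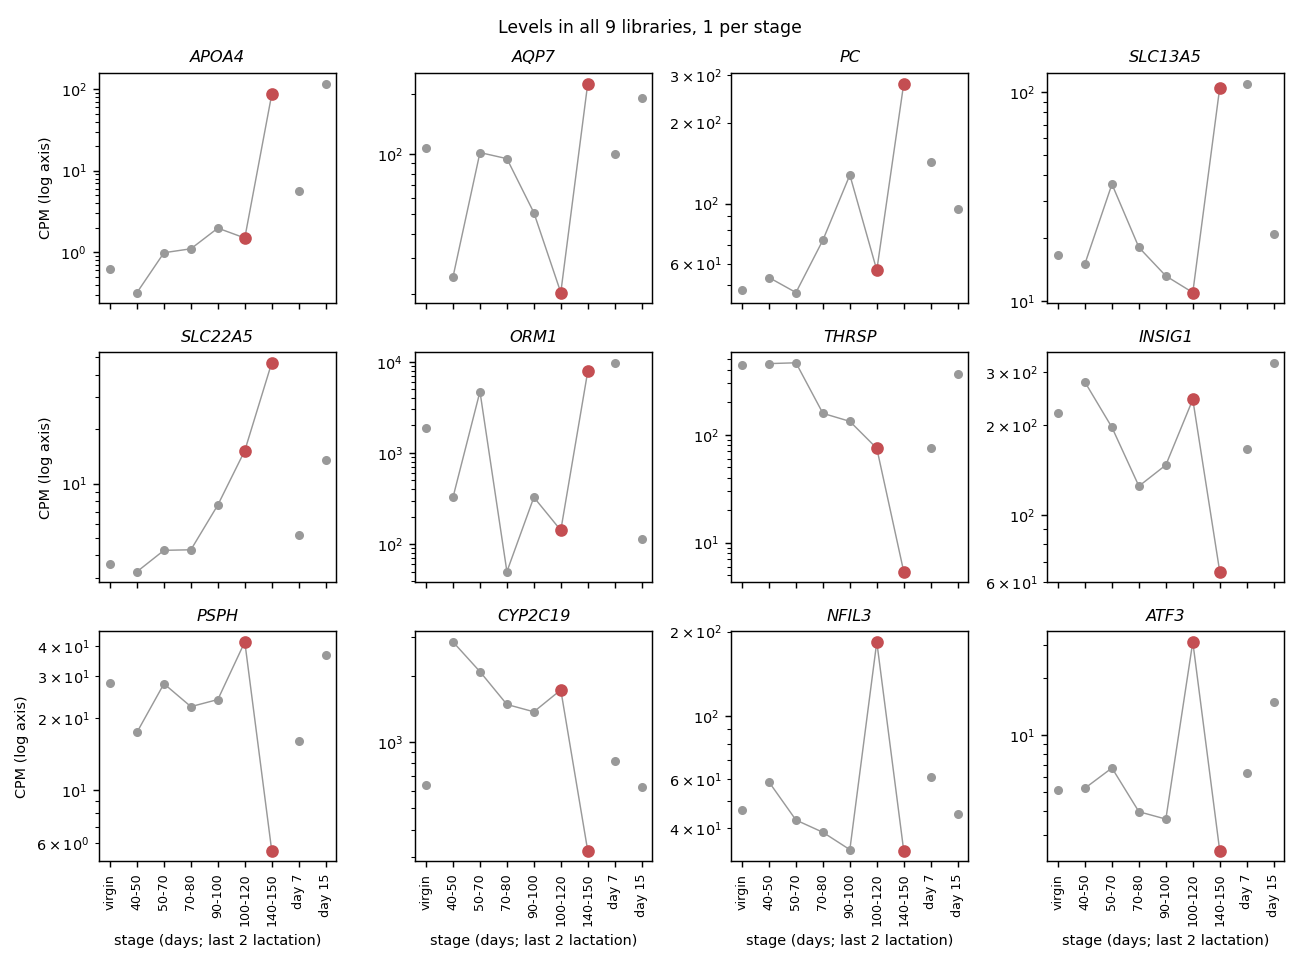
Each panel gives a gene's level in CPM on a log axis in all 9 libraries, the virgin library first, then the 6 gestation libraries joined by a line and the 2 lactation libraries; red points are the compared stages. APOA4, AQP7, PC and SLC13A5 are highest in gestation at term and THRSP, INSIG1, PSPH and CYP2C19 lowest, whereas NFIL3 and ATF3 have their gestation maximum at days 100 to 120.

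Of 15 plasma carrier genes tested, 13 were lower at term (55.1% over all genes tested) and 2 higher. In 3 of the 15 the level was 2-fold lower (4.13% over all). In 1, TTR, all term blocks lay below all earlier blocks (2.06% over all). The median log2 fold change of the 15 was -0.35. ALDH1A1, an enzyme outside that list which makes retinoic acid from retinal, was at 4689 and 1629 CPM. TTR, transthyretin, a carrier of thyroxine, stood at 35328 CPM at days 100 to 120 (blocks 26114 to 50373, median 35056) and 16409.7 CPM at term (blocks 3923 to 24615, median 18168). Both ALDH1A1 and TTR had separate blocks, with their lowest values in the last 2 term blocks. RBP4, the retinol carrier of plasma, differed less, at 4329 and 3257 CPM. AHSG, fetuin A, was 2.39-fold lower, at 16358 and 6844 CPM, and its relative FETUB 2.99-fold lower, at 1696 and 567 CPM, both with overlapping blocks.

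Several enzymes that process drugs were lower. The gene annotated CYP2C19, a cytochrome P450, stood at 1723 CPM at days 100 to 120 (blocks 805 to 4384, median 1373) and 321 CPM at term (blocks 44.5 to 686, median 276), 5.37-fold lower. That annotated UGT2B7, a glucuronosyltransferase, was at 1038 and 232 CPM, and CYP2A6 at 1204 and 528 CPM. Blocks did not overlap in any of these 3 genes. GSTA1-1, a glutathione transferase, was at 7716 and 2192 CPM with separate blocks, and its relative GSTA1 at 783 and 360.3 CPM with overlap. These genes belong to families with similar copies, and the sources used here do not say how reads shared between copies were counted. CES4A, a carboxylesterase, went the other way, at 13.2 and 69.8 CPM, and at 28.8 CPM without term cells 401 to 492. Of 16 drug-metabolizing enzymes 6 were higher and 10 lower, 2 of them 2-fold higher (3.31% over all genes tested) and 3 2-fold lower (4.13% over all). Without term cells 401 to 492, 2 were 2-fold lower. CYP2A6 and GSTA1-1 are outside that list. Of 13 tested genes of steroid handling 4 were higher and 9 lower, and only 1, UGT2B7, was 2-fold lower.

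Iron storage and antioxidant genes were lower too. FTL, the light chain of ferritin, stood at 1143 CPM at days 100 to 120 (blocks 937 to 1389, median 1054) and 390.1 CPM at term (blocks 254 to 498, median 409), and FTH1, the heavy chain, was at 2965 and 1455 CPM. TXN, thioredoxin, which reduces protein disulfides, was at 450.2 and 172 CPM, and BLVRB, biliverdin reductase B, at 421 and 186 CPM. All 4 had separate blocks. The NRF2 list held 23 tested genes that NRF2 is known to drive or that serve the same defence. Of these, 20 were lower (55.1% over all genes tested) and 3 higher. In 5 of the 23 the level was 2-fold lower (4.13% over all). The median of the list was -0.49. NQO1, a classical NRF2 target, was at 17.9 and 8.87 CPM, and GCLC, the catalytic subunit of glutathione synthesis, was higher at term, at 58.3 and 80.5 CPM. Metallothionein MT1B was 5.75-fold lower, at 83.7 and 14.6 CPM, with 8 of 10 term blocks below the earlier minimum.

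Single enzymes of amino acid metabolism were lower at term by more than 2-fold. PSPH, which completes serine synthesis, stood at 41.8 CPM at days 100 to 120 (blocks 33.5 to 53.8, median 40.3) and 5.57 CPM at term (blocks 1.65 to 9.44, median 5.27), without overlap. CSAD, which makes hypotaurine, was at 115 and 29.8 CPM with separate blocks, and CDO1, the cysteine dioxygenase upstream of it, at 681 and 299 CPM with 9 of 10 term blocks below the earlier minimum. OAT, ornithine aminotransferase, was 17.5-fold lower, at 79.5 CPM at days 100 to 120 (blocks 2.8 to 187, median 79) and 4.53 CPM at term (blocks 0.649 to 10.1, median 3.37). ARG2, the mitochondrial arginase, was 25.8-fold lower, at 44.9 CPM at days 100 to 120 (blocks 0.686 to 86.2, median 48.8) and 1.74 CPM at term (blocks 0.542 to 3.92, median 0.965). For OAT and ARG2 the earlier blocks themselves spread widely: OAT was at 2.8 and 5.86 CPM in blocks 2 and 3, within the term range, and at 187 CPM in block 6. The urea cycle genes were even, with 5 of 11 higher and 6 lower; ARG1, the cytosolic arginase, was at 1051 and 657 CPM.

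JUNB and ATF3 were high in the second part of the earlier library. JUNB, a transcription factor induced within minutes of a stimulus, was at 0.865 to 1.19 CPM in earlier blocks 1 to 3 and at 22.2, 36.1, 47.4 and 26.8 CPM in blocks 4 to 7. Its term blocks ran from 1.75 to 5.91 CPM, above the first 3 earlier blocks and below the last 4. ATF3, a stress-induced transcription factor, was at 5.28 to 5.6 CPM in earlier blocks 1 to 3, 33.8, 67, 58.2 and 37.2 CPM in blocks 4 to 7, and 0.6 to 6.74 CPM over the term blocks. NFIL3, a repressor linked to the circadian clock, was at 184 and 33.3 CPM, with 33.6 CPM at days 90 to 100. RETREG1, a receptor for the turnover of endoplasmic reticulum, was 21.4-fold lower, at 21 and 0.979 CPM, with 1.36 CPM at days 90 to 100. HSPA6, an inducible heat shock protein, was at 35.6 and 4.25 CPM, with 2 CPM at days 90 to 100.

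As a list, 18 of 18 tested immediate early genes were lower at term (55.1% over all genes tested), 11 of them 2-fold (4.13% over all), with a median log2 fold change of -1.41. In 2 of the 18 all term blocks lay below all earlier blocks (2.06% over all). In 16 the library of days 100 to 120 was the highest of the 6, against 24.6% over all genes. Against days 90 to 100, a comparison that shares the term library, the median of the same genes was -0.10. Cytosolic heat shock genes were lower in 12 of 13 (55.1% over all), with a median of -0.44 and of 0.14 against days 90 to 100. ATF4 targets were lower in 13 of 14 (55.1% over all), with medians of -0.90 and -0.27. Sterol genes, set beside them, had medians of -0.90 and -0.84.

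**Figure D5:**
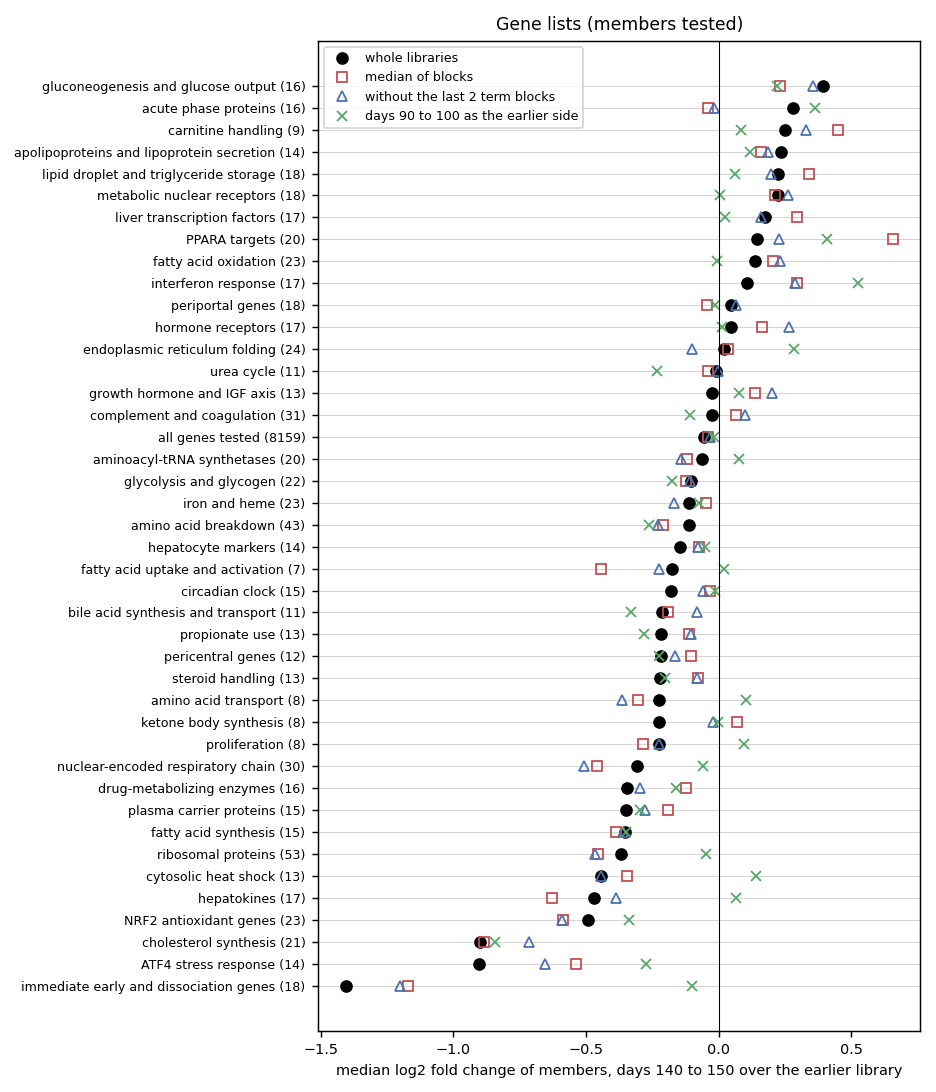
Each row is a gene list with the number of members tested, and the x axis is the median log2 fold change of those members, days 140 to 150 over the earlier library. Filled circles are whole libraries, squares block medians, triangles the value without term cells 401 to 492 and crosses the value with days 90 to 100 as the earlier library; cholesterol synthesis lies between -0.90 and -0.71 in all 4, and immediate early genes between -1.41 and -0.10.

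Of 15 clock genes tested 6 were higher and 9 lower, 4 of them 2-fold lower, with a median log2 fold change of -0.18. Hormone receptors were higher in 10 of 17, with 1 2-fold lower, and genes of the growth hormone axis in 6 of 13, with 2 2-fold lower. Over all genes tested the share 2-fold lower was 4.13%. NR1D2, a clock repressor, stood at 178 CPM at days 100 to 120 (blocks 136 to 234, median 175) and 68.8 CPM at term (blocks 41 to 106, median 69.8), with separate blocks, and was at 73.2 CPM at days 90 to 100. CRY1 and BMAL1, core clock genes, were 3.16-fold and 2.19-fold lower, with high levels in the last earlier blocks, while PER1, PER2 and DBP differed by under 2-fold. KLB, the co-receptor through which FGF21 acts, was 2.97-fold lower, at 96.7 and 32.5 CPM, with 6 of 10 term blocks below the earlier minimum. Of the growth hormone axis, CISH and SOCS2, feedback inhibitors that growth hormone induces, were 2.26-fold and 2.02-fold lower, while GHR, the growth hormone receptor, was at 994 and 936 CPM and IGF1 at 251 and 312 CPM.

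Ribosomal and respiratory chain genes were lower by small amounts. Of 53 ribosomal protein genes 51 were lower (55.1% over all genes tested) and 2 higher, 0 of them 2-fold, with a median log2 fold change of -0.37. RPS28 had the largest difference, at 2800.3 and 1625 CPM, and its blocks did not overlap. In 47 of the 53 the library of days 100 to 120 was the highest of the 6, against 24.6% over all genes tested. The median against days 90 to 100 was -0.05. Of 30 nuclear-encoded respiratory chain genes 27 were lower (55.1% over all), with a median of -0.31, and NDUFA2, a complex I subunit, was at 616 and 347 CPM. The earlier library also had the fewest genes per thinned cell, and the part of that in these shifts was not tested.

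Detection per cell gave a lopsided count. After thinning, 1150 genes (14.1%) were detected in at least 20 percentage points more cells at term and 28 (0.343%) in at least 20 points fewer, and the median gene was detected in 10.9 points more. The number of genes per thinned cell was higher at term as well, and its part in this count was not tested. SLC13A5 was detected in 25.3% of cells at days 100 to 120 (exact 95% interval 20.8 to 30.3%) and 88.1% at term (84.7 to 91%). FANCI, a gene of DNA crosslink repair, was detected in 11.2% and 73.7%, at 2.79 and 21.6 CPM, and ATP4A, a proton pump subunit known from the stomach, in 11.5% and 68.6%, at 2.66 and 21.3 CPM. The last 2 had separate blocks, as did COL27A1, a fibrillar collagen gene that is a neighbour of ORM1 in the RefSeq gene order, at 4.23 and 28.7 CPM. Losses ran against the shift of the median gene. THRSP was detected in 59.4% and 25.4%, PSPH in 55% and 22.9%, and ARG2 in 39.4% and 8.47% of cells.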

How the data were processed

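The submitters' processing notes name featureCounts 2.0.1, HISAT2 2.1.0 and Trimmomatic 0.39. The authors deposited whole-number counts per gene and cell, treated here as read counts, since no source used here states that molecular identifiers were collapsed. The genome build and the handling of shared reads are not given in the sources used here. Cell columns were assigned to stages by name, and the stage was the same in the authors' cell sheet for 3404 of 3404 cells. The 24 rows without a gene held 0.474% of reads and were left out. All 28837 symbols were in the RefSeq table of ARS-UI_Ramb_v3.0, used only for names and gene order. A second deposited table held NA throughout and was left aside. Values of some members of the lists are not reported here.

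Counts were summed per library and scaled with TMM over all 9 libraries in edgeR 4.0.16 (R 4.3.3). Cells are not replicates, so no test was run. Intervals (95%, exact Poisson and exact binomial) cover counting error only, and reads of 1 molecule are not independent. Detection is the share of cells with at least 1 read after thinning to 155164 reads, which left out 13 cells at days 100 to 120 and 55 at term. Doublets were not called, since cells were picked by hand. Both the fold calls and the detection calls used genes with a mean of at least 5 CPM. The step that calls genes was tested on simulated counts with counting error only. Those counts lacked the differences between blocks seen here, so they do not measure false calls in these data.

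The stages, the 48 gene lists and the rule for naming genes were chosen with earlier results of these data known. The rule takes, per direction, up to 12 genes with the largest fold and up to 6 with the highest level (symbol other than LOC, at least 20 CPM and 25% of thinned cells in the higher library, at most 10% of its reads in 1 cell), up to 6 with the largest difference in detection, and for each list the 4 members with the largest fold and the most abundant one. The blocks of cell numbers and days 90 to 100 as another earlier side were chosen after the data were seen. Also named after their values were seen were ACACA, ACOT12, APOB, CD68, CDO1, CRP, CSAD, CYP2A6, DBP, DIRAS3, ESR1, FBP1, G6PC1, GCLC, HADHA, HMGCS1, HPS5, IGF1, IRF1, LOC101118224, LOC101120204, LOC105601867, LOC105604171, LOC114108774, LOC114117484, LOC114117619, MPC1, MX1, NQO1, PDK4, PER1, PER2, RBP4, SC5D, SERPINA1, SERPINA10, SQLE, STAT2. Alternatives were library size, DESeq2 1.42.0 size factors, equal weight per cell, thinned cells, no top cell, other filters, block medians, no term cells 401 to 492, and days 90 to 100. Tables and plots were made in Python 3.11.15 (matplotlib 3.10.9, SciPy 1.17.1, pandas 2.3.3, numpy 2.4.6).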

Additional observations from a re-analysis of the deposited data

How the results depend on the processing

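The numbers of genes 2-fold higher and lower stayed within 1.5 times of 270 and 337 under library size, DESeq2 size factors, equal weight per cell, thinned cells, no top cell, block medians, no term cells 401 to 492 and days 90 to 100. With no filter on low levels they were 2817 and 2320, and at a mean of 20 CPM 105 and 192. The parts of these genes with term outside the range of the 5 earlier gestation libraries were 1197 above and 723 below with no filter, and 83 and 118 at 20 CPM. Detection differed by 20 points in 446 and 56 genes when 3 reads were required, and in 473 and 16 genes at 20 CPM. Genes 2-fold apart with separate blocks numbered 6 higher and 39 lower with blocks of 25 cell numbers, and 98 higher and 108 lower without term cells 401 to 492. Of the 270 higher genes, 224 stayed 2-fold higher and 16 were lower without those cells, and of the 337 lower genes 260 stayed 2-fold lower. Against days 90 to 100 the counts were similar but most genes were not the same. There 103 of the 270 (38.1%) stayed 2-fold higher and 86 of the 337 (25.5%) 2-fold lower. Days 100 to 120 was the lowest of the 6 gestation libraries in 136 of the 270 and the highest in 205 of the 337. Over all genes tested the shares were 15% and 24.6%. The calls themselves used the level at days 100 to 120, which raises both counts, so these shares are not a fair background for them.

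List medians (log2), recomputed with the filter applied anew, were as follows where they moved by more than the spread in the text's main lists. With days 90 to 100 as the earlier side they were 0.22 for glucose output, -0.26 for amino acid breakdown, -0.27 for ATF4 targets, 0.60 for interferon genes, -0.34 for NRF2 genes, -0.049 for ribosomal proteins and 0.41 for PPARA targets, and immediate early genes turned to 0.19. With block medians they were 0.23 for glucose output, -0.23 for amino acid breakdown, -0.54 for ATF4 targets, -0.59 for NRF2 genes and 0.66 for PPARA targets. Without term cells 401 to 492 they were -0.22 for amino acid breakdown, -0.66 for ATF4 targets and -0.59 for NRF2 genes. With no filter glucose output was -0.011 and interferon genes 0.76, by library size amino acid breakdown was -0.031, and with thinned cells NRF2 genes were at -0.36. The causes were not tested.

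Of the genes described in the text with a 2-fold difference, those that changed direction (log2) without term cells 401 to 492 were ORM1 at -1.59, PRODH at -0.56, SDS at -0.96, GNMT at -0.27 and LOC105601867 at -0.15. With block medians, where 10 of the 270 higher and 3 of the 337 lower genes changed direction, those described were ORM1 at -1.11, SDS at -0.61, GNMT at -0.12 and FGF21 at 3.10. Against days 90 to 100 those described were FGF21 at 1.43, HSPA6 at 1.08, SOCS2 at 0.14, HBB at 2.70, LOC114117484 at 2.70 and LOC114117619 at -0.15. Without the top cell HBB was at 0.31. No paired analysis was possible because each stage has 1 library. The limit of precision is the single library per stage, since counting error was small for most genes named.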

Other observations

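Of 17 liver transcription factors tested 9 were higher and 8 lower at term, 1 of them, ATF5, 2-fold lower (4.13% over all genes tested). Of 18 metabolic nuclear receptors 11 were higher and 7 lower, 0 of them 2-fold. PROX1, a factor of liver development, was at 209.9 CPM at days 100 to 120 and 406 CPM at term, with 8 of 10 term blocks above the earlier maximum. NR1I2, the xenobiotic receptor PXR, was at 54.9 and 99.7 CPM, also with 8 of 10 term blocks above, while the related receptor NR1I3 was at 42.1 and 27.4 CPM. ATF5 was 2.17-fold lower, at 204 and 94 CPM. RORA, a clock activator, was at 145 and 218 CPM, with the last 2 term blocks below the earlier minimum and the other 8 above the earlier maximum. SLC51B, a subunit of the bile acid exporter of the sinusoidal side, was 2.5-fold lower, at 132 and 52.7 CPM. ESR1, the estrogen receptor, was level at 63.5 and 64.1 CPM.

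Genes without an established symbol made up 91 of the 270 higher and 106 of the 337 lower genes, or 33.7% and 31.5%, against 11.4% of all genes tested. The following were picked with their values known. LOC114108774 stood at 8.87 CPM at days 100 to 120 (blocks 2.48 to 33.5, median 3.18) and 132 CPM at term (blocks 59.7 to 175, median 141), with separate blocks. LOC101118224, which lies between SERPINA10 and SERPINA1 in the RefSeq gene order, stood at 65.5 CPM at days 100 to 120 (blocks 22.5 to 80.9, median 70.5) and 6.04 CPM at term (blocks 0.571 to 14, median 6.94), with separate blocks in the other direction. LOC114117619 was at 1439.8 and 8898 CPM with separate blocks, and at 9886 CPM at days 90 to 100, above the term level. LOC114117484, from the same neighbourhood, was at 243 and 6.22 CPM, with 338, 629.8 and 582 CPM in earlier blocks 2 to 4, the blocks that were high in PLIN2 and FGF21. DIRAS3, a small GTPase, was at 0.546 and 9.66 CPM with separate blocks and 0.933 CPM at days 90 to 100.

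Single cells carried some differences that the sums show for genes of other cell types. HBB, a hemoglobin chain, was at 13.1 and 0.643 CPM, with 96% of its earlier reads in 1 cell. ACTA2, a smooth muscle actin of stellate cells, was at 12.7 and 0.477 CPM, with 55% of its earlier reads in 1 cell.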
